A study of Mus musculus with 8 samples.

Results

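The endothelium of the kidney was followed through 10 genes: Pecam1, Cdh5, Kdr, Flt1, Emcn, Ehd3, Tie1, Plvap and Tek, which are made by endothelial cells, and Vegfa, the growth factor these cells depend on. They were taken by gene name from a table of 35275 genes. All 10 were found once each, and all 10 passed the filter of a mean of at least 1 FPKM (fragments scaled by gene length and by the size of the library), as did 12118 genes in all. The table came from poly-A selected RNA of whole left kidneys of 8 male mice on a C57BL/6J background, aged 40 weeks and kept on high-fat chow (60% of kcal) from week 6. Of these, 4 carried no intact copy of C1qtnf1, which encodes the secreted protein CTRP1 (Ctrp1-/-, called KO), and 4 were wild-type littermates (WT). The KO allele lacks 679 bp, the coding part of exon 4 with 162 bp of the 3' UTR. It came from 129S5 stem cells, was backcrossed to C57BL/6J over more than 6 generations, and was carried in all cells rather than in endothelium alone. Each value was compared between KO and WT with all 8 mice and again without KO replicate 2.

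Endothelial cells line every vessel of the kidney, from the fenestrated loops of the glomerulus to the peritubular capillaries and vasa recta. They are held together by PECAM1 (CD31) and VE-cadherin, the product of Cdh5. Podocytes and tubule cells secrete VEGF-A, which binds the receptors KDR (VEGFR2) and FLT1 (VEGFR1) on the endothelium. KDR carries most of the growth and survival signal, while FLT1 binds the ligand tightly and also exists as a soluble form that traps it. TEK (TIE2) is the receptor of the angiopoietins and TIE1 is its partner receptor without a ligand of its own among the classical angiopoietins. Endomucin (Emcn) is a surface sialomucin of capillaries and veins, EHD3 is a membrane trafficking protein enriched in glomerular endothelium, and PLVAP forms the diaphragms that close the fenestrae of peritubular capillaries. Vegfa is thus a gene of the neighbouring epithelium and was kept apart from the 9 endothelial members below.

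The libraries held 17884140 to 20344859 reads. The KO was checked at C1qtnf1, which lay between 5.27 and 5.55 FPKM in WT and between 0.322 and 0.883 FPKM in KO, so each library matched its label. Kidney markers were present, and the tubule gene Umod had 1180 FPKM on average in WT. KO replicate 2 stood apart from the other 7 libraries. Transcripts of the mitochondrial genome made up 13.7% of its FPKM and 5.49% to 8.84% elsewhere, and all 5 tested immediate early genes (Fos, Jun, Junb, Egr1 and Ier2) were highest in it, with Fos at 7.79 FPKM against 0.69 to 2.11 and Jun at 70.18 FPKM against 13.35 to 19.56. Its heat shock gene Hspa1a, at 5.59 FPKM, was near the WT range of 2.89 to 5.4, while the other KO mice had 9.79 to 20.9 FPKM. Its values also moved with gene length, as described below. In bulk tissue, fewer endothelial cells and less RNA per endothelial cell cannot be told apart. No label said how the mice were spread over litters, cages or days.

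Levels were compared per gene length, so their order rests on the lengths behind the FPKM, as fitted. GENCODE M21 exon lengths differ from these unevenly, at 13504 against 6895 bases for Flt1 and 4203 against 3986 for Cdh5. The order at M21 lengths was not tested. In WT kidneys Plvap was highest at 145.9 ± 12.2 FPKM (SD, n = 4), followed by Vegfa at 67.7 ± 6.91 FPKM. The next were Kdr at 21.3 ± 1.43, Pecam1 at 20.6 ± 0.508, Tie1 at 18.6 ± 1.07 and Ehd3 at 17.8 ± 1.33 FPKM, and the ranges of neighbours in this row overlapped. Flt1 at 14.6 ± 1.35, Emcn at 11.8 ± 0.2, Cdh5 at 11.0 ± 0.334 and Tek at 9.09 ± 0.543 FPKM each lay apart from the next. Plvap was above 96.1% and Tek above 50.8% of all tested genes. Between 366 and 6745 reads stood behind each value of a member. The KO mice other than replicate 2 had the same order except that Tie1 came first, Pecam1 next and Kdr last among these 3.

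**Figure D1:**
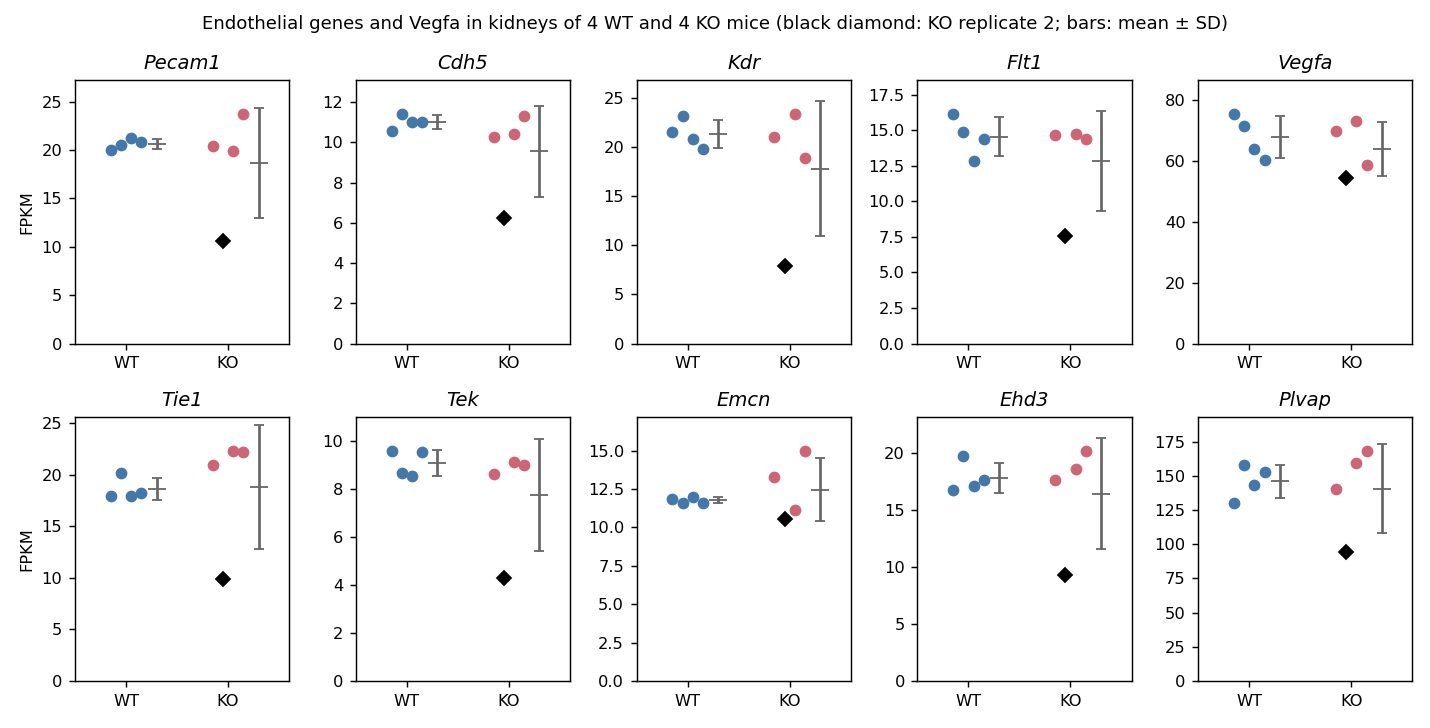
FPKM of the 10 genes in each mouse (y axis, from 0), with WT in blue, KO in red, KO replicate 2 as a black diamond and mean ± SD of 4 mice beside each group. KO replicate 2 was the lowest of the 8 mice in all 10 genes, from 37.2% of the WT mean in Kdr to 89.5% in Emcn, while the other KO mice lay among or near the WT mice.

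For the pan-endothelial adhesion genes, 3 of the 4 KO mice lay close to WT and KO replicate 2 lay far below. Pecam1 (ENSMUSG00000020717) lies on chromosome 11 from 106654217 to 106750628 in mm10, 11.7 Mb from the targeted gene. Its WT mice had 20.01, 20.52, 21.2 and 20.86 FPKM, and its KO mice had 20.44, 10.55, 19.88 and 23.71 FPKM in the order of replicates 1 to 4. KO replicate 2 alone was low and KO replicate 4 was the highest of the 8. Cdh5 (ENSMUSG00000031871), on chromosome 8 from 104101625 to 104144511, was at 10.59, 11.41, 11.04 and 11.01 FPKM in WT and at 10.28, 6.23, 10.4 and 11.3 FPKM in KO. KO replicate 2 again lay apart below, KO replicates 1 and 3 lay just under the lowest WT mouse, and KO replicate 4 lay within the WT range. The spread of the WT mice was small in both genes. The coefficient of variation was 2.46% for Pecam1 and 3.03% for Cdh5, where the count of reads alone gives 2.68% and 3.41%.

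The log2 fold change of Pecam1 was -0.17 ± 0.18 (SE, limma adjusted p = 0.87) with a 95% interval from -0.58 to 0.23. Without KO replicate 2 it was 0.04 ± 0.07 (limma adjusted p = 0.91), and the interval ran from -0.13 to 0.20. For Cdh5 it was -0.20 ± 0.13 (limma adjusted p = 0.86), and -0.05 ± 0.07 without KO replicate 2 (limma adjusted p = 0.84), with an interval from -0.20 to 0.10.

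In the VEGF axis, KO replicate 2 was far below WT in both receptors and less so in the ligand. Vegfa (ENSMUSG00000023951), on chromosome 17 from 46016993 to 46032369, was at 75.34, 71.47, 63.79 and 60.25 FPKM in WT and at 69.7, 54.44, 72.97 and 58.61 FPKM in KO. The groups overlapped, and KO replicates 2 and 4 lay below the lowest WT mouse. Kdr (ENSMUSG00000062960), on chromosome 5 from 75932827 to 75978458, was at 21.53, 23.17, 20.82 and 19.77 FPKM in WT and at 21.05, 7.93, 23.33 and 18.9 FPKM in KO. KO replicate 2 had 37.2% of the WT mean, the lowest share among the members, and in pooled reads the 95% exact binomial interval of that share, which covers counting error only, was 34.7% to 39.9%. Flt1 (ENSMUSG00000029648), on chromosome 5 from 147561604 to 147726011, was at 16.14, 14.89, 12.87 and 14.36 FPKM in WT and at 14.65, 7.57, 14.74 and 14.4 FPKM in KO. The 3 KO mice other than replicate 2 lay within the WT range and close to each other. Values per gene do not separate the membrane and soluble forms of Flt1 or the splice forms of Vegfa.

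The log2 fold change of Kdr was -0.32 ± 0.25 (limma adjusted p = 0.86), with the widest interval of the members, from -0.87 to 0.22. It was -0.02 ± 0.08 without KO replicate 2 (limma adjusted p = 0.95), with an interval from -0.21 to 0.16. Flt1 was at -0.19 ± 0.16 with all mice (limma adjusted p = 0.86) and at 0.00 ± 0.07 without that mouse, with an interval from -0.15 to 0.15. Vegfa was at -0.06 ± 0.10 (limma adjusted p = 0.91) and at -0.02 ± 0.09, with an interval from -0.22 to 0.18.

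Of the angiopoietin receptors, Tie1 was the one member in which the KO mice other than replicate 2 did not overlap with WT. Tie1 (ENSMUSG00000033191), on chromosome 4 from 118471191 to 118490061, was at 17.98, 20.19, 17.99 and 18.23 FPKM in WT and at 20.93, 9.87, 22.26 and 22.21 FPKM in KO. KO replicates 1, 3 and 4 were above all WT mice at 21.8 ± 0.752 FPKM (SD, n = 3), 117% of the WT mean, and KO replicate 2 was far below them. Among all tested genes, 5.59% had these 3 KO mice above all 4 WT mice in FPKM. That share leaves out genes with the 3 KO mice below all WT mice, while overlap among the members was looked at in both directions. Tek (ENSMUSG00000006386), on chromosome 4 from 94739289 to 94874976, was at 9.57, 8.69, 8.56 and 9.56 FPKM in WT and at 8.64, 4.28, 9.14 and 9.02 FPKM in KO. Its groups overlapped apart from KO replicate 2.

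With all mice the log2 fold change of Tie1 was -0.03 ± 0.20 (limma adjusted p = 0.98). Without KO replicate 2 it was 0.21 ± 0.07, with an interval from 0.06 to 0.36. This difference had an unadjusted limma p of 0.0094 and did not pass after adjustment over all genes (adjusted p = 0.30). Tek was at -0.23 ± 0.17 (limma adjusted p = 0.86) and at -0.03 ± 0.07 without that mouse (limma adjusted p = 0.92).

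Among genes of particular vessel beds, KO replicate 2 was far below WT in Ehd3 and Plvap and near WT in Emcn. Emcn (ENSMUSG00000054690), on chromosome 3 from 137341067 to 137432185, was at 11.85, 11.58, 12.0 and 11.61 FPKM in WT and at 13.26, 10.53, 11.11 and 14.94 FPKM in KO. KO replicates 1 and 4 were above and KO replicates 2 and 3 below all WT mice, so the KO values surrounded a narrow WT range. Ehd3 (ENSMUSG00000024065), on chromosome 17 from 73804134 to 73832094, was at 16.77, 19.75, 17.15 and 17.67 FPKM in WT and at 17.66, 9.29, 18.67 and 20.17 FPKM in KO. Plvap (ENSMUSG00000034845), on chromosome 8 from 71497765 to 71511752, was at 130.2, 157.9, 142.9 and 152.7 FPKM in WT and at 140.1, 94.53, 159.1 and 167.7 FPKM in KO. In both, KO replicate 2 was the one low mouse and KO replicate 4 the highest of all.

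The log2 fold change of Emcn was 0.08 ± 0.10 (limma adjusted p = 0.87), and 0.13 ± 0.09 without KO replicate 2 (limma adjusted p = 0.62). Ehd3 was at -0.14 ± 0.18 (limma adjusted p = 0.88) and turned to 0.07 ± 0.08, and Plvap was at -0.06 ± 0.15 (limma adjusted p = 0.94) and turned to 0.09 ± 0.09. Neither passed without that mouse, with adjusted p of 0.79 and 0.78 by limma. None of the 10 members shares exon bases with another annotated gene.

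With all 8 mice, 0 of the 10 members passed the threshold (limma, adjusted p under 0.05), against 0.0413% of all tested genes, and 0 had an unadjusted p under 0.05, against 6.04%. Of the 10 fold changes, 9 were below 0, beside 52.6% of all tested genes, and their median was -0.16 beside -0.009 over all tested genes. Without KO replicate 2, 0 of 10 passed against 0.165%, and Tie1 was the 1 member with an unadjusted p under 0.05, against 11.6%. Here 4 of the 10 were below 0 beside 52.8% of all tested genes, with a median of 0.02 beside -0.008. In log2 terms the 95% intervals of the 10 members without that mouse lay between -0.22 and 0.36.

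**Figure D2:**
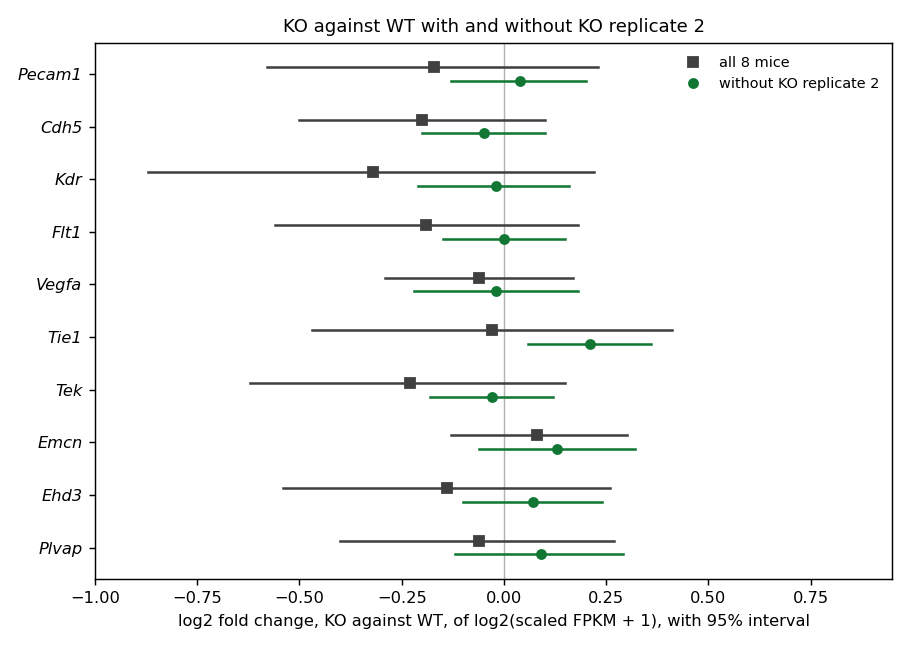
Log2 fold change of KO against WT (x axis) for each member with its 95% limma interval, from all 8 mice (dark squares) and without KO replicate 2 (green circles). With all mice every interval held 0, and without KO replicate 2 all but that of Tie1 (0.06 to 0.36) did.

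KO replicate 2 was the lowest of the 8 mice in all 10 members in FPKM, where it was lowest in 42.5% of all tested genes. After scaling between libraries it was lowest in 8 of 10, all but Vegfa and Emcn, beside 33.8%. Averaged over the 9 endothelial members, its scaled log2 level was 0.70 below the WT mean (-0.70), against -0.06 to 0.05 in the WT mice and -0.01 to 0.10 in the other KO mice. It had 37.2% to 56.6% of the WT mean FPKM in Kdr, Tek, Pecam1, Flt1, Ehd3, Tie1 and Cdh5, 64.8% in Plvap, 80.4% in Vegfa and 89.5% in Emcn.

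Gene length moved with these values. In KO replicate 2 the median log2 difference from WT was 0.51 for genes of 501 to 1000 bases, -0.08 for those of 3001 to 4000 bases and -0.45 for those over 7000 bases, while in the other 7 libraries no length class had a median outside -0.05 to 0.06. Most members are long: their lengths, as fitted from the FPKM, were 2015 bases for Plvap, 3441 to 3986 bases for Pecam1, Vegfa, Emcn, Ehd3 and Cdh5, 4234 for Tie1, 4654 for Tek, 5924 for Kdr and 6895 for Flt1. The median of a length class has as many genes of the class below as above it. Set against that of their own class, 9 of the 10 members were lower in KO replicate 2. The difference was -0.11 in Vegfa, -0.42 (Flt1) to -0.89 (Kdr) in the other 8 that were lower, and 0.04 in Emcn. With the length trend of each library removed, an alternative chosen after the data were seen, 8 of the 10 fold changes were below 0 beside 48.9% of all tested genes, and 0 of 10 passed against 0.0578%. Array weights, estimated from how far each library strayed from the fit in these same values, gave KO replicate 2 a weight of 0.0995. With them 0 of 10 passed against 0.479%. In KO replicate 2, Kdr was lower than all but 0.953% of the 1364 genes of its class. Pecam1 and Emcn, set side by side after their values were seen, have nearly the same fitted length, 3441 and 3521 bases. Their GENCODE M21 exon lengths are 6228 and 5409 bases. In KO replicate 2 they differed from WT by -0.80 and -0.04.

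Among 34 endothelial genes, the 9 members and 25 further tested pan-endothelial genes, KO replicate 2 was below WT in 1 of 8 genes of up to 2000 bases, in 13 of 16 of over 2000 and up to 4000 bases and in 9 of 10 of over 4000 bases. Over all tested genes of these lengths the shares were 18.2%, 50.2% and 79.2%. The tight junction gene Cldn5 (1414 bases), chosen after its values were seen like the others in this paragraph, was at 14.92 FPKM in KO replicate 2 and at 8.17 to 10.64 FPKM in the other mice. The transcription factor gene Sox18 (1620 bases) was the short gene that was low, at 8.05 FPKM against 15.77 to 20.12 FPKM. The receptor phosphatase gene Ptprb, whose product restrains TEK, has 11912 bases and was at 2.92 FPKM against 6.54 to 8.45 FPKM. Across the 34 genes the correlation of log2 length with the log2 difference of this 1 mouse was -0.65, and across all 12118 genes -0.53. The mean log2 difference of the other 3 KO mice had a correlation of -0.39 with log2 length over the same 34 genes. Genes of 1 library share its depth and RNA and are not replicates. The part of gene length, RNA quality or the mitochondrial share in the low endothelial values was not tested.

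**Figure D3:**
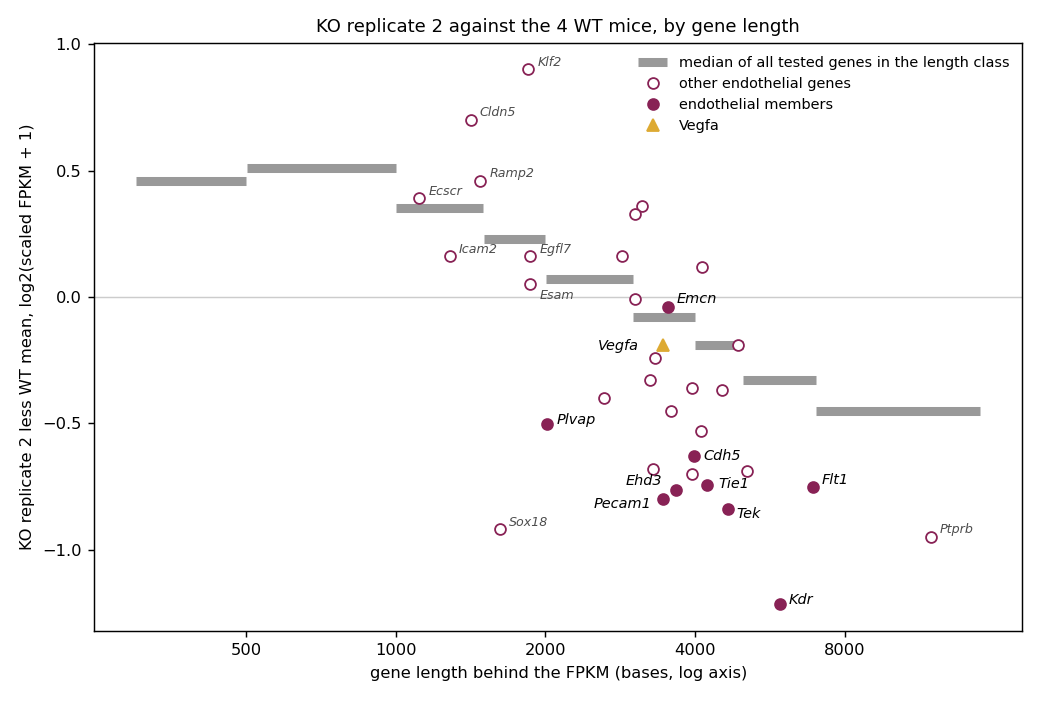
Difference of KO replicate 2 from the mean of the 4 WT mice in log2(scaled FPKM + 1) (y axis) against gene length in bases (x axis, log scale) for the 9 endothelial members (filled), 25 other endothelial genes (open) and Vegfa (triangle), with the median of all tested genes in each length class as grey bars. Of the members, 9 lie below the bar of their class, and Emcn lies 0.04 above it.

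Ratios between members within a mouse do not depend on scaling between libraries. They are not free of the length trend of KO replicate 2 where the 2 genes differ in length. Its class medians were 0.07 for 2001 to 3000 bases, -0.08 for 3001 to 4000 and -0.33 for 5001 to 7000. Vegfa and Kdr have 3451 and 5924 bases, and Plvap and Pecam1 have 2015 and 3441. The part of gene length in the ratios was not tested. Of 7 ratios compared, 0 passed an exact permutation test (two-sided) after adjustment over the 7. The ratio Tek/Tie1 came nearest, at 0.532, 0.43, 0.476 and 0.524 in WT and 0.413, 0.433, 0.411 and 0.406 in KO. All KO mice were at the low end, KO replicate 2 included, and only WT replicate 2 overlapped with them. The mean log2 ratio was -1.03 ± 0.14 in WT and -1.27 ± 0.04 in KO (SD, n = 4), a difference of -0.23 with an exact permutation p of 0.057 (adjusted p = 0.40). The smallest p possible with 4 against 4 mice is 0.029, so a single ratio could not pass after adjustment over the 7. That 0 passed therefore says little about the ratios.

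KO replicate 2 had a Vegfa/Kdr ratio of 6.87, against 3.05 to 3.5 for the other 7 mice (log2 difference 0.28, exact permutation p = 0.46, adjusted p = 0.64). Emcn/Pecam1 reached 0.998 in KO replicate 2 beside 0.649, 0.559 and 0.63 in the other KO mice and 0.557 to 0.592 in WT (log2 difference 0.28, exact permutation p = 0.11, adjusted p = 0.40). Kdr/Flt1 was 1.05 in KO replicate 2 against 1.31 to 1.62 elsewhere. The range of Ehd3/Pecam1 in WT, 0.809 to 0.962, held all 4 KO mice (0.851 to 0.939). Plvap/Pecam1 was 8.96 and Cdh5/Pecam1 0.591 in KO replicate 2, each the highest of the 8 mice. The differences of Kdr/Flt1 and of these last 3 ratios had exact permutation p of 0.29 to 0.74. With that mouse left out the smallest p possible is 0.057, which Tek/Tie1 reached.

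**Figure D4:**
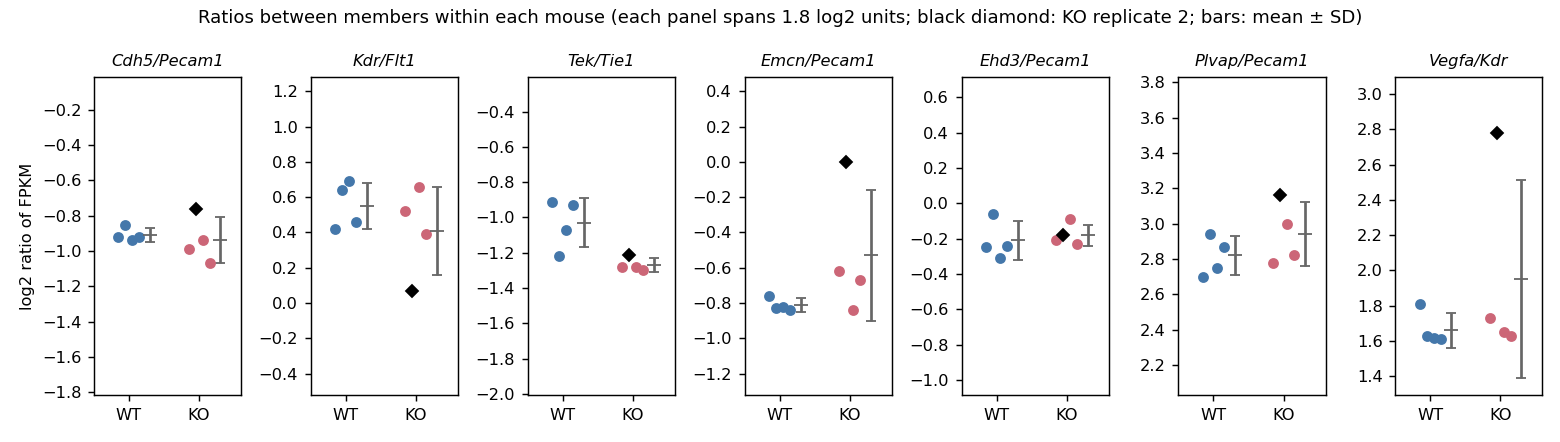
Log2 ratio of FPKM (y axis) of 7 pairs of members in each mouse, WT in blue, KO in red and KO replicate 2 as a black diamond, with mean ± SD of 4 mice. KO replicate 2 lies far above the rest in Vegfa/Kdr and Emcn/Pecam1, and the 4 KO mice lie at the low end in Tek/Tie1.

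How the members moved together over the mice differed with and without KO replicate 2. As a description, the 36 pairwise Pearson correlations of the 9 endothelial members had a median of 0.90 over 8 mice, with 36 above 0. Over the 7 mice without KO replicate 2 the median was 0.02 and 19 were above 0. The highest of these was Ehd3/Plvap at 0.92, and the lowest was Kdr/Emcn at -0.78. Correlations of Vegfa with the 9 members had a median of 0.35 over 8 mice and of -0.36 over 7.

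The 8 genes whose pattern over the 8 mice was most like the mean of the 9 endothelial members were Prrc2b, Trrap, Rptor, Klhl18, Fam65a, Rapgef1, Nomo1 and Slc6a8, with Pearson correlations of 0.992 to 0.995. Each was low in KO replicate 2, from 33.1% of the WT mean in Prrc2b to 67.1% in Nomo1. This follows from the choice, since the endothelial mean itself was low in that mouse. Their lengths were 3964 to 12479 bases. Over the other 7 mice, whose values also entered the choice, their correlations were 0.76 to 0.92. None of the 25 tested pan-endothelial genes was among the 8.

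The wider vascular lists gave 0 called genes with all mice and 0 without KO replicate 2 (limma). Of 25 tested pan-endothelial genes, 10 had positive and 15 negative fold changes, with a median of -0.04, and without KO replicate 2 16 were positive. Ramp2, which partners the receptor of adrenomedullin in endothelium, was at 6.37, 6.9, 6.86 and 7.38 FPKM in WT and 8.17, 9.08, 8.96 and 9.93 FPKM in KO, with no overlap between the groups, as in 5.3% of tested genes. Its log2 fold change was 0.37 ± 0.09. This had an unadjusted limma p of 0.0027 and did not pass after adjustment (adjusted p = 0.41). Klf2, a transcription factor induced by flow and also an early response gene, was at 17.2 ± 2.28 FPKM in WT against 23.6 ± 5.51 FPKM in KO (SD, n = 4, limma adjusted p = 0.79). Without KO replicate 2, which had 30.17 FPKM, its KO mean was 21.4 ± 4.12 FPKM (SD, n = 3).

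Further ligands and receptors of the VEGF and angiopoietin axes did not pass either. Of 6 tested VEGF ligands and co-receptors 4 were positive with a median of 0.03. The co-receptor gene Nrp2 was at 4.86 ± 0.464 FPKM in WT against 4.25 ± 1.66 FPKM in KO, and Flt4, the receptor of VEGF-C in lymphatic and fenestrated endothelium, at 4.51 ± 0.391 and 3.78 ± 1.66 FPKM. KO replicate 2 had 36.4% and 30.5% of the WT mean in these. Of 4 tested genes of the angiopoietin axis 1 was positive (median -0.16). Angpt1, the activating ligand of TEK, was at 2.28 ± 0.507 FPKM in WT against 1.84 ± 0.326 FPKM in KO. Angpt2, the ligand that antagonises it in many settings, was at 2.26, 1.74, 1.3 and 1.85 FPKM in WT and 2.34, 2.32, 2.26 and 3.28 FPKM in KO. The lowest KO mouse and the highest WT mouse were equal at 2 decimals, and the difference had an unadjusted limma p of 0.015 and did not pass after adjustment (adjusted p = 0.71).

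Genes of single vessel beds gave mixed signs. In the glomerular capillary list, which also holds Ehd3, 4 of 6 tested were positive (median 0.10). There Lpl, lipoprotein lipase, which many other cells make as well, was at 46.2 ± 8.71 FPKM in WT against 72.8 ± 21.4 FPKM in KO, and Smad6 at 8.55 ± 1.6 and 9.27 ± 1.06 FPKM. With KO replicate 2 left out, their KO means were 64.7 ± 17.0 and 9.6 ± 0.996 FPKM (SD, n = 3). In the arterial list 4 of 8 were positive (median 0.01), with Sox17 at 4.81 ± 0.533 and 5.83 ± 0.674 FPKM and Fbln5 at 28.3 ± 1.8 and 23.2 ± 6.7 FPKM. Without KO replicate 2 the KO means were 5.8 ± 0.822 and 26.4 ± 1.86 FPKM (SD, n = 3). In the venous and peritubular list, which holds Plvap, 1 of 6 was positive (median -0.20, and -0.02 without KO replicate 2). Ephb4 was at 23.5 ± 1.27 and 20.3 ± 5.87 FPKM there and Gpihbp1, which carries lipoprotein lipase to the capillary lumen, at 6.46 ± 1.94 and 4.72 ± 0.92 FPKM. With KO replicate 2 left out, the KO means of these 2 genes were 23.1 ± 2.27 and 4.99 ± 0.916 FPKM.

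In the lymphatic list 1 of 4 was positive (median -0.06), the transcription factor gene Prox1 at 1.17 ± 0.262 and 1.39 ± 0.34 FPKM. Of 4 tested adhesion and activation genes 2 were positive, with Icam1 at 10.2 ± 1.34 and 10.7 ± 2.35 FPKM and Procr, the protein C receptor gene, at 1.06 ± 0.226 and 0.996 ± 0.368 FPKM. In the vascular Notch list 3 of 7 were positive (median -0.01). The Notch ligand gene Jag2 was at 2.75 ± 0.295 and 3.48 ± 0.545 FPKM and Notch1 at 4.35 ± 0.257 and 3.92 ± 1.66 FPKM. Without KO replicate 2, which had 1.44 FPKM, Notch1 was at 4.75 ± 0.101 FPKM in KO (SD, n = 3).

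Vegfa is a target of the hypoxia-inducible factors, and 4 of 11 tested hypoxia response genes were positive (median -0.05). Pdk1, the kinase that holds back pyruvate dehydrogenase, was at 10.65, 8.14, 9.34 and 9.76 FPKM in WT and 7.33, 6.05, 7.34 and 7.38 FPKM in KO, with no overlap, as in 5.3% of tested genes. Its log2 fold change of -0.36 ± 0.09 had an unadjusted limma p of 0.0026 and did not pass after adjustment (adjusted p = 0.41). The oxygen sensor gene Egln1 was at 31.3 ± 2.51 and 36.2 ± 4.33 FPKM (limma adjusted p = 0.79).

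Markers of the cells around the vessels had 0 called genes with all mice. Their summed FPKM in KO replicate 2 was below all other mice in podocytes (156 against 176 to 212), the proximal tubule (4320 against 4740 to 5550) and the thick ascending limb and distal tubule (1160 against 1580 to 1890). Slc34a1 gave 2906.44 FPKM of the proximal tubule sum and Umod 814.61 FPKM of the thick limb sum. KO replicate 2 was the lowest mouse in 6 of 9, 6 of 9 and 3 of 6 tested genes of these lists, beside 42.5% of all tested genes. Slc22a6, Slc22a8 and Slc7a13 were at 108%, 102% and 112% of the WT mean in it, and Cldn16 and Pvalb at 101% and 142%. Gene length was not taken out of the sums. The sum of KO replicate 2 was above all other mice in collecting duct principal cells (487 against 272 to 472), where Aqp2 alone gave 364.26 FPKM. In this mouse Aqp2 and Fxyd4 were at 179% and 172% of the WT mean, and Aqp3, Scnn1b and Scnn1g at 95.8%, 95.1% and 92.5%. For mesangium and pericytes its sum was 61.7 within 53.9 to 66.8. Leukocytes, which also make Pecam1, had 44.5 to 55.8 in WT, 54.9 in KO replicate 2 and, in KO replicates 1, 3 and 4, 49.3 to 74.7. Red cells and platelets had 425 to 1230 in WT and 632 to 884 in KO. Urothelial genes summed to 3.98 to 10.2 FPKM in WT and 14.8 to 34.1 FPKM in KO without overlap. Psca alone gave 0.63 to 4.14 FPKM in WT and 5.88 to 13.2 FPKM in KO. All 6 tested genes of this list were positive with a median of 0.97, while 52.6% of all tested genes were below 0. No gene of these lists found in the table was at 0 in all mice. The part of these cells in the values of the members was not tested.

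The genes with the lowest p in these lists did not pass by limma (adjusted p of 0.14 to 0.89). They included Cdkn1c at 29.9 ± 4.58 FPKM in WT against 40.9 ± 6.64 in KO for podocytes, and Gata3 at 4.83 ± 0.264 and 6.15 ± 0.364 and Myh11 at 3.15 ± 0.701 and 4.72 ± 0.975 for mesangium and pericytes. For the proximal tubule they were Slc5a12 at 86.1 ± 8.79 and 66.0 ± 19.2 and Slc6a19 at 136 ± 11 and 105 ± 21.3, and for the thick limb Umod at 1180 ± 114 and 1010 ± 132 and Slc12a1 at 156 ± 27.3 and 133 ± 24.3. Without KO replicate 2 the KO means in this order were 75.3, 116, 1070 and 144 FPKM. Principal cells gave Aqp2 at 203 ± 35.1 and 313 ± 61.8 and Fxyd4 at 12.3 ± 1.82 and 16.2 ± 3.8, and the urothelium gave Upk3a at 0.861 ± 0.417 and 3.16 ± 1.24 and Psca at 1.92 ± 1.58 and 9.29 ± 3.71. With that mouse left out, the KO means in this order were 296, 14.6, 3.36 and 10.4 FPKM. Leukocytes gave Csf1r at 11.5 ± 1.09 and 13.1 ± 1.51 and Cd52 at 9.56 ± 1.22 and 11.8 ± 3.09, and blood gave Hbb-bt at 38.0 ± 20.2 and 39.8 ± 3.26 and Itga2b at 2.8 ± 0.534 and 3.03 ± 0.339. Hspa1a at 4.26 ± 1.14 and 11.7 ± 6.5 and Hspa1b at 10.2 ± 2.49 and 30.3 ± 19.2 are near-identical heat shock genes whose reads may be shared.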

How the data were processed

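RNA of whole kidneys from 4 KO and 4 WT mice was compared. The authors deposited FPKM values in 1 table, made with STAR 2.5, HTSeq 0.6.1, CASAVA and DESeq2 on build mm10, per the submitters' processing notes. The header states no unit: FPKM was inferred, since column totals differed and low values came in steps that shrank as genes got longer. What each tool did, the annotation and strand counting were not stated in the sources used. Columns were mapped to mice by their titles, and replicate numbers follow accession order (KO replicate 2 is the mouse left out). Each library came from a different mouse by its label.

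Library totals and gene lengths were fitted to the FPKM steps so that all 22945 genes above 0 gave whole reads within 0.002 reads. With totals shifted by up to 0.1%, 0.0% of 500 genes did. At GENCODE M21 exon lengths 5865 genes did, so read numbers rest on the fitted lengths. The reads gave trimmed mean of M values factors (0.93 to 1.04; trims 0.3 and 0.05), voom fits and counting error. The main test was limma 3.58.1 in R 4.3.3 (trend and robust, statmod 1.5.0) on log2(FPKM / factor + 1) for genes with a mean of at least 1 FPKM, with Benjamini-Hochberg adjustment over all genes tested. Fold changes on this scale understate low genes. Without KO replicate 2, factors and filter were recomputed. The length classes and the fit with the length trend removed were added after the data were seen. The procedure was tested on simulated data. These held no outlying library and no length trend, so they do not show how it performs with KO replicate 2 included.

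The members, 19 lists and ratios were chosen with earlier results of these data known. Named were all members, C1qtnf1, the called genes of each list or else the 2 of lowest p, and the 8 genes most like the endothelial mean. A gene under this rule is not reported here. Intervals of 95% on reads cover counting error only. Positions are from M21, which matched 97.8% of the genes. No sequences are shown.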

Additional observations from a re-analysis of the deposited data

Results flagged for a closer look

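In groups of 4 mice, 110 sets of values (the members, their ratios and the named genes, in each genotype) were looked at for a mouse whose gap to its nearest neighbour exceeded the 95% critical value of Dixon as a share of the whole range. Chance flags about 1 in 20 such sets, and 12 were found, 7 of them for KO replicate 2. The sets come from the same libraries, the ratios reuse values of the members, and many named genes were picked by their p. They are therefore not independent, and the count of 12 cannot be weighed against that rate. The share flagged among all tested genes was not tested. KO replicate 2 was the low mouse among KO in Flt1 (gap over range 0.953), Tie1 (0.893), Tek (0.897), Nrp2 (0.9), Notch1 (0.941) and Pdk1 (0.964), and the high one in the ratio Vegfa/Kdr (0.917). WT replicate 2 was high in Tie1 (0.89), at 20.19 FPKM, and WT replicate 1 was high in Angpt1 (0.906) and in the ratio Vegfa/Kdr (0.911). WT replicate 3 was low in Fbln5 (0.908). KO replicate 4 was high in Angpt2 (0.917), at 3.28 FPKM. In Kdr, the member lowest in KO replicate 2 relative to WT, the other 3 KO mice were themselves spread too far for that gap to stand out.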

How the results depend on the processing

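Of the 10 members 0 passed under any alternative run, and their lowest adjusted p was 0.26 (limma, Tie1 without KO replicate 2 and with no scaling factor; 0.30 with it). No paired analysis was possible because the labels give no replicate numbers shared between WT and KO. The 5 called genes became 58 with array weights (30 higher, 28 lower), where KO replicate 2 had a weight of 0.0995, and 3 to 20 when 1 mouse was left out (2 to 16 higher, 1 to 11 lower; 20 each without KO replicate 2 and without KO replicate 3, and 3 each without WT replicate 1 and without WT replicate 3). In the fixed lists the 0 called genes became 1 with array weights, the urothelial Upk1a, and 0 to 2 when 1 mouse was left out. Fold changes of members turned sign with array weights in Flt1 (0.01), Vegfa (0.03), Tie1 (0.18), Ehd3 (0.02) and Plvap (0.04), as did Nrp2 (0.04) and Notch1 (0.08). With the length trend removed Tie1 turned to 0.02, and 8 of the 10 members were below 0 with a median of -0.10. Leaving out 1 mouse gave log2 fold changes of -0.29 to 0.04 for Pecam1, -0.26 to 0.00 for Flt1, -0.12 to 0.21 for Tie1, -0.24 to 0.07 for Ehd3 and -0.15 to 0.09 for Plvap, the highest in each without KO replicate 2. Among other genes the ranges that crossed 0 were -0.42 to 0.01 for Flt4, -0.31 to 0.05 for Nrp2, -0.05 to 0.18 for Icam1, -0.09 to 0.02 for Procr, -0.30 to 0.10 for Notch1 and -0.01 to 0.51 for Hbb-bt, and for the log2 ratio Cdh5/Pecam1 -0.09 to 0.01. The cause of these changes was not tested. The order of levels was the same after scaling, which divides all genes of a library by the same factor and so could hardly change it. Other gene lengths were not tried.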
